A study of Mus musculus with 4 samples.

Results

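The SOX genes Sox2, Sox4, Sox5, Sox6, Sox8, Sox9, Sox10, Sox11, Sox17 and Sox21 were followed in RNA from the cochleae of Zbtb20 knockout and wild-type mice. They were taken by their symbols in the deposited tables and made up 10 of the 17816 genes with a value. All 10 reached the mean of 0.5 FPKM over the 4 libraries that was asked of a gene before it was tested, as did 13966 genes in all. FPKM scales fragments to the length of the transcript and the depth of the library, so levels of genes of different length can be set side by side. None of the 10 passed an adjusted p of 0.05 between the genotypes, where 4.43% of all genes tested did (limma). Before adjustment 1, Sox4, was under 0.05, as were 22.0% of all genes tested. In the same fit all 13 genes of a Schwann cell list downstream of SOX10 passed as lower in the knockout. Of 7 tested melanocyte genes 5 passed as higher and 1 as lower. Over all genes tested 2.38% passed as higher and 2.04% as lower. The lists were chosen with earlier results of these data known.

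The cochleae came from C57BL/6 mice at postnatal day 10, with 2 libraries per genotype that carry the replicate numbers 2 and 3. Knockout replicate 2 is labelled Zbtb20 F/F with FoxG2-cre and knockout replicate 3 Zbtb20 F/F with FoxG3-cre. Wild-type replicate 2 is labelled Zbtb20 +/+ with FoxG2-cre and wild-type replicate 3 Zbtb20 +/+ with FoxG3-cre, so the controls carry a cre as well. The name of the driver changes with the replicate number in both genotypes, and the driver and the number cannot be told apart. The labels alone do not settle whether these names stand for different drivers or for 1 driver. The labels do not say in which cells the driver is active, how many animals gave each library or whether the libraries of a genotype came from separate animals. P-values therefore measure the spread between these libraries, which may be technical.

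SOX proteins bind DNA through an HMG box, a fold that sits in the minor groove and bends the helix, and most of them act together with partner factors on neighbouring DNA. The family is divided into lettered groups by the sequence of that box. In the inner ear SOX2 marks the prosensory cells and later the supporting cells, SOX9 and SOX10 act in the otic epithelium, SOX10 is also the factor of Schwann cells and melanocytes, and SOX9 with SOX5 and SOX6 drives cartilage genes. The cochlea holds all of these tissues, and its RNA here was taken from the whole organ as labelled.

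Promoters are shown for the SOX gene with the widest difference between the genotypes (Sox4), for Sox2, and for 3 genes downstream of SOX10: the Schwann cell gene Cnp and the melanocyte genes Dct and Tyr. Each runs from 250 bases before to 50 bases after a RefSeq start on GRCm38.p6, 5′ to 3′ on the strand of the gene. Capitals mark the letters ACAAAG or ACAATG on either strand, which the HMG boxes of SOX factors are known to prefer. Sox4 lies on the minus strand at chr13:28953650-28953949, Sox2 on the plus strand at chr3:34649745-34650044, Cnp on the plus strand at chr11:100574689-100574988, Dct on the minus strand at chr14:118052197-118052496 and Tyr on the minus strand at chr7:87493463-87493762.
Sox4: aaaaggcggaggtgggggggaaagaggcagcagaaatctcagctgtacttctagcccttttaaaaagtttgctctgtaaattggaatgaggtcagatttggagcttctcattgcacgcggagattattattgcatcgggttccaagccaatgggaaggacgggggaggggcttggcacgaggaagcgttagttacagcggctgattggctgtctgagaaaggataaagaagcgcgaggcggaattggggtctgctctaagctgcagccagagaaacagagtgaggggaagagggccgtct
Sox2: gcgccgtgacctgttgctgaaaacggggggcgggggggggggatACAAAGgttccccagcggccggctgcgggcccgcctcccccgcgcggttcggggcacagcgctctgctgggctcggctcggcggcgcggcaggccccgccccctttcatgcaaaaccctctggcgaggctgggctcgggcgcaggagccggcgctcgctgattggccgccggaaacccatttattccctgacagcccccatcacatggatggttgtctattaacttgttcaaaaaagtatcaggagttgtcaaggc
Cnp: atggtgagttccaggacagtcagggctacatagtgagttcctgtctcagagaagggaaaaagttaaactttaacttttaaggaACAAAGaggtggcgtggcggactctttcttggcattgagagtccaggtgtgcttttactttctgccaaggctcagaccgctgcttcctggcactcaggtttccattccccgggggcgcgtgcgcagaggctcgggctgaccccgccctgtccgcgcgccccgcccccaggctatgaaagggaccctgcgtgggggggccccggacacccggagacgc
Dct: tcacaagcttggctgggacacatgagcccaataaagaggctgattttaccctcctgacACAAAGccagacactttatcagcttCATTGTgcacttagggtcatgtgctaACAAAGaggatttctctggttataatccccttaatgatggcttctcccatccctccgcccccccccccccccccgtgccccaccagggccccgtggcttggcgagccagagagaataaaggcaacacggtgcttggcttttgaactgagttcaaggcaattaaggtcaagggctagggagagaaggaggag
Tyr: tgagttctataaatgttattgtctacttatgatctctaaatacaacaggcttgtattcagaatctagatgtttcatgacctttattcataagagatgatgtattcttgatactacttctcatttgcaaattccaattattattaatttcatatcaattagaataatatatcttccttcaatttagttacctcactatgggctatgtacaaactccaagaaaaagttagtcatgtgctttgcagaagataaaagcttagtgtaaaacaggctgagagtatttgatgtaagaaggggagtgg

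The Dct stretch held 3 matches, 2 of ACAAAG on the strand shown and 1 of ACAATG on the other. Sox2 and Cnp held 1 match of ACAAAG each, and in the stretches of Sox4 and Tyr these letters were not found. They were also not found in the stretches of Sox8 and of another Schwann cell gene, which were searched but are not printed. RefSeq promoter entries were at hand for 7 of the 10 SOX genes, with no entry used for Sox9, Sox10 and Sox17. Of their 12 entries 7 held a match, 5 of them among the 6 entries of Sox6. Among all 32851 promoter entries of this length 28.6% held a match, as did 5 of 20 entries of the Schwann cell list and 2 of 9 of the melanocyte list. A match describes letters and is no evidence of a bound site.

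The deposited FPKM came to 400487 and 398113 in all in the knockout libraries, against 405144 and 391808 in the wild-type libraries. The steps between low values put the depth near 18050000 and 19250000 fragments in the knockout libraries and 18050000 and 18700000 in the wild-type libraries. This is an estimate, since only 65.6% to 68.6% of the low values came out whole within 0.15 of a fragment. Chance gives 30.0% at a depth fixed beforehand, but each depth here was picked because its share was highest, so the 2 shares are not alike. Zbtb20, which encodes a zinc finger repressor and is the gene targeted, was at 7.35 and 7.41 FPKM in the knockout and 10.94 and 10.67 FPKM in the wild type (log2 fold change -0.49 ± 0.08 SE, adjusted p = 0.0394, limma). Its call was lost without each of the 4 libraries in turn, at log2 fold changes between -0.51 and -0.48. Without either knockout library nearly all calls over all genes tested were lost too. Wild-type replicate 2 stood apart: 8 skeletal muscle markers together gave 4.08 and 2.02 FPKM in the knockout libraries, against 462 FPKM in wild-type replicate 2 and 1.51 FPKM in wild-type replicate 3. Myh4 was listed at 0 in both knockout libraries and in wild-type replicate 3.

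An adjusted p under 0.05 was reached by 4.43% of the 13966 genes, 2.38% as higher and 2.04% as lower in the knockout (limma on log2(FPKM + 1), two-sided, Benjamini-Hochberg adjustment). Among the 10 SOX genes the count was 0. At an unadjusted p under 0.05 there was 1, Sox4, where 22.0% of all genes tested stood. The log2 fold changes, knockout over wild type, ran from -0.29 to 0.44 with a median of 0.02, against a median of 0.06 over all genes tested. For 8 of the 10 the fold change was smaller than 0.25 in either direction on the log2 scale, as it was for 73.3% of all genes tested. The groups did not overlap in 4 of the 10, with the knockout above in Sox4 and Sox6 and below in Sox8 and Sox17. Over all genes tested this held for 55.0% of genes, 37.9% with the knockout above and 17.1% with it below, so the share among the SOX genes is no higher than the background.

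**Figure D1:**
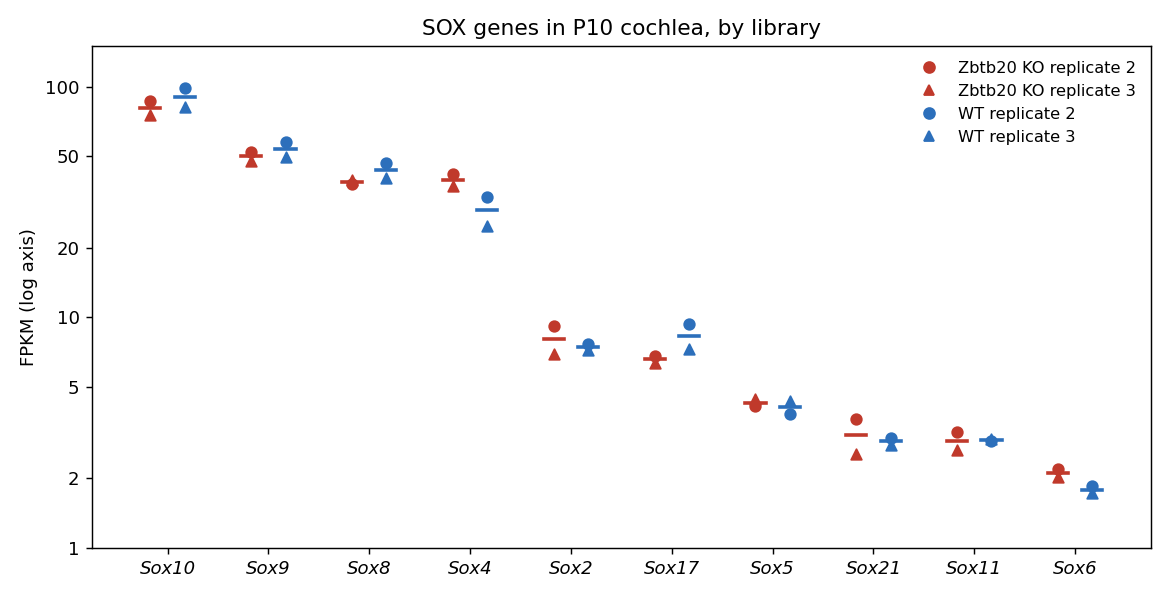
FPKM of the 10 SOX genes on a log axis, in order of their mean level, with knockout libraries in red on the left and wild-type libraries in blue on the right of each gene. Circles are replicate 2, triangles replicate 3 and bars group means. Sox10 is highest, between 74.99 and 98.84 FPKM, and Sox6 lowest, between 1.72 and 2.2 FPKM, and the groups lie close together at each gene.

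The SoxE genes had the highest mean levels of the family over all libraries. Sox10, the factor that specifies glia and melanocytes of the neural crest and is present throughout the otic epithelium, was at 86.13 and 74.99 FPKM in the knockout libraries, against 98.84 and 81.13 FPKM in the wild-type libraries. The groups overlapped: knockout replicate 2 lay above wild-type replicate 3. Sox10 averaged 80.6 ± 7.88 FPKM in the knockout and 90.0 ± 12.5 FPKM in the wild type (SD, n = 2 each), a log2 fold change of -0.15 ± 0.12 SE with a 95% interval of -0.46 to 0.16 (adjusted p = 0.499, limma). An estimated 3916 to 4840 fragments per library stood behind these values, a counting error of 1.44% to 1.6%. The fold change was -0.01 once wild-type replicate 2, the library with muscle transcripts, was left out and -0.30 once wild-type replicate 3 was. Leaving out knockout replicate 2 gave -0.25 and leaving out knockout replicate 3 gave -0.06. Sox10 spans chromosome 15 from 79154908 to 79165240 on the minus strand (GENCODE vM21, GRCm38).

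Sox9, which governs cartilage formation and the invagination of the otic placode, was at 52.04 and 47.63 FPKM in the knockout and 57.59 and 49.62 FPKM in the wild type. The groups overlapped, and the log2 fold change was -0.10 ± 0.10 SE (95% interval -0.35 to 0.15, adjusted p = 0.579, limma). Sox9 was at 0.00 when wild-type replicate 2 was left out and at -0.21 when its partner was. Sox8, the third SoxE gene, closely related to both and often found beside them, was at 37.86 and 39.16 FPKM in the knockout, against 46.53 and 40.03 FPKM in the wild type. Both knockout libraries were lower, but the gap to wild-type replicate 3 was small beside the gap between the wild-type libraries. The log2 fold change of Sox8 was -0.16 ± 0.09 SE (95% interval -0.39 to 0.07, adjusted p = 0.365, limma). Leaving out wild-type replicate 2 gave -0.05 for Sox8, and leaving out replicate 3 of that genotype gave -0.27. Of its exon bases 10.6% are shared with the antisense transcript 2810468N07Rik, and the sources used here do not say whether counting used strand, so fragments of the pair cannot be told apart there. Within each library the SoxE genes kept close proportions: Sox10 was 1.66 and 1.57 times Sox9 in the knockout and 1.72 and 1.64 times in the wild type. Sox8 was 0.728 and 0.822 of Sox9 in the knockout, with 0.808 and 0.807 in the wild type.

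The SoxB genes were far lower. Sox2, of the SoxB1 activators, is needed for the sensory patches of the cochlea and stays on in supporting cells. It was at 9.12 and 6.95 FPKM in the knockout and 7.67 and 7.22 FPKM in the wild type, with both wild-type libraries between the knockout libraries. The log2 fold change was 0.09 ± 0.14 SE (95% interval -0.26 to 0.43, adjusted p = 0.735, limma). Sox21, of the SoxB2 repressors that counter SoxB1 factors, was at 3.6 and 2.55 FPKM in the knockout and 3.0 and 2.8 FPKM in the wild type, again with the wild type inside the knockout range (log2 fold change 0.05 ± 0.15 SE, 95% interval -0.34 to 0.44, adjusted p = 0.866, limma). Both genes were higher in knockout replicate 2 than in knockout replicate 3. Sox21 rested on an estimated 186 to 247 fragments per library and Sox2 on 275 to 339, a counting error of 6.36% to 7.32% and of 5.43% to 6.03%. Sox2 is a single-exon gene on chromosome 3 from 34650405 to 34652461, inside the span of the long non-coding gene Sox2ot on the same strand, with which it shares 0 exon bases; the RefSeq start behind the promoter shown lies upstream of this GENCODE start. Sox21 shares 18.8% of its exon bases with the antisense transcript Gm4675.

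Sox4 showed the widest difference of the 10. Sox4 and Sox11 are the SoxC factors of progenitors and newly formed neurons, and in the mouse ear they act before hair cells form. Sox4 was at 41.89 and 36.92 FPKM in the knockout libraries, against 33.29 and 24.89 FPKM in the wild-type libraries. Both knockout libraries were higher, and the difference of the means was wider than the gap between the libraries of either genotype. The means were 39.4 ± 3.51 FPKM in the knockout and 29.1 ± 5.94 FPKM in the wild type (SD, n = 2 each), a ratio of 1.35. The log2 fold change was 0.44 ± 0.15 SE with a 95% interval of 0.06 to 0.82 (unadjusted p = 0.0318, adjusted p = 0.185, limma), so it did not pass over all genes. It passed without wild-type replicate 2, the library with muscle transcripts (log2 fold change 0.64, adjusted p = 0.0485), and was at 0.23 without wild-type replicate 3 (adjusted p = 0.33). Sox4 is a single-exon gene on chromosome 13 from 28948919 to 28953713 on the minus strand. Of its exon bases 54.6% are shared with the transcript Gm26735 on the other strand, not analysed here. Strand use in counting is not known, so fragments of Sox4 and Gm26735 cannot be told apart over these bases. The difference in Sox4 carries this limit, as do the values of the other SOX genes that share exon bases with such a transcript.

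Sox11, the smaller of the pair in level, was at 3.16 and 2.66 FPKM in the knockout and 2.91 and 2.96 FPKM in the wild type, a log2 fold change of -0.01 ± 0.12 SE (95% interval -0.30 to 0.28, adjusted p = 0.96, limma). The wild-type values lay inside the knockout range, on an estimated 426 to 474 fragments per library. Sox4 was 13.3 and 13.9 times the FPKM of Sox11 in the knockout and 11.4 and 8.41 times in the wild type. Whether the fold changes of Sox4 and Sox11 differ was not tested.

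The SoxD genes Sox5 and Sox6 encode partners without an activation domain of their own, which help SOX9 on cartilage genes. Sox5 was at 4.1 and 4.42 FPKM in the knockout and 3.8 and 4.33 FPKM in the wild type, with overlapping groups (log2 fold change 0.06 ± 0.11 SE, 95% interval -0.22 to 0.33, adjusted p = 0.788, limma). Of the exon bases of Sox5 9.25% are shared with the antisense transcript Sox5os1. Sox6, also a gene of muscle and of developing blood cells, was at 2.2 and 2.03 FPKM in the knockout and 1.85 and 1.72 FPKM in the wild type. Both knockout libraries of Sox6 were higher by more than the gaps within each genotype, yet the log2 fold change of 0.16 ± 0.11 SE did not pass (95% interval -0.12 to 0.45, adjusted p = 0.442, limma). On the log2(FPKM + 1) scale a gene at this level is compressed, and with a pseudocount of 0.1 the fold change of Sox6 was 0.23 (adjusted p = 0.448).

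Sox17, a SoxF factor of endoderm and of arterial endothelium, was at 6.77 and 6.34 FPKM in the knockout and 9.34 and 7.28 FPKM in the wild type. Both knockout libraries were lower, but the wild-type libraries differed by 2.06 FPKM and the means by 1.76 FPKM. The log2 fold change was -0.29 ± 0.13 SE, the lowest of the 10 (95% interval -0.62 to 0.04, adjusted p = 0.267, limma). With wild-type replicate 2 left out Sox17 was at -0.13, and with its partner left out at -0.45. Of the exon bases of Sox17 16.8% are shared with Gm37587 on the other strand. The SoxF relative Sox18, a factor of blood and lymph vessels, was at 16.45 and 15.98 FPKM in the knockout and 19.05 and 13.48 FPKM in the wild type, and its ratio to Sox17 was 2.43 and 2.52 in the knockout and 2.04 and 1.85 in the wild type. The endothelial cadherin gene Cdh5 was 4.83 and 5.09 times Sox17 in the knockout and 3.41 and 4.07 times in the wild type. Cdh5 was named after its values were seen. Of 13 endothelial genes tested it was the 1 with both knockout libraries above both wild-type libraries. In 5 of the 13 both knockout libraries were below. The separation of this ratio thus depends on the gene picked, and whether Sox17 fell relative to endothelial genes as a set was not tested.

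**Figure D2:**
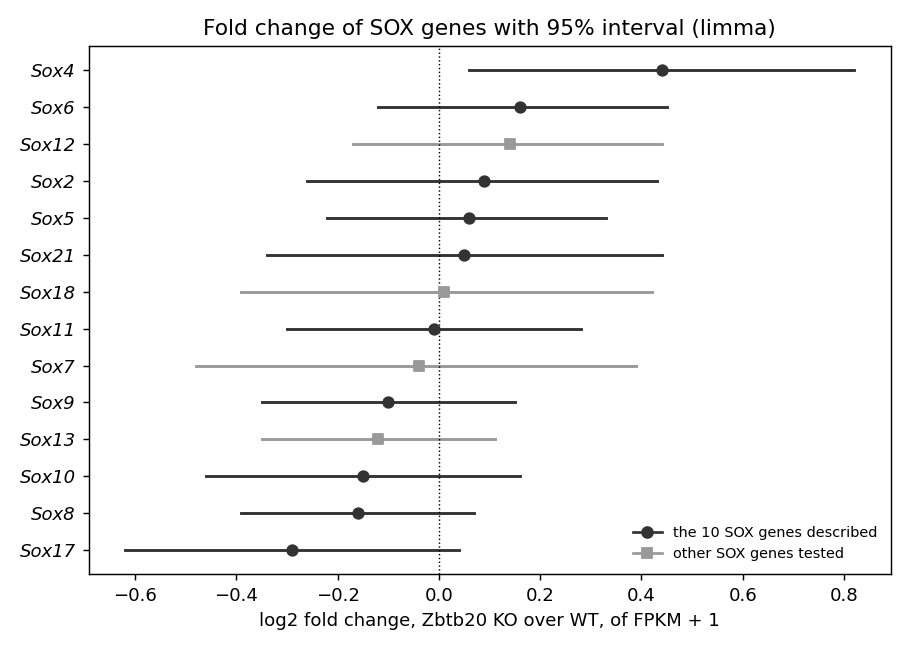
Log2 fold changes of FPKM + 1, knockout over wild type, with 95% intervals from limma, for the 10 SOX genes (black circles) and the 4 other SOX genes tested (grey squares). Only the interval of Sox4, from 0.06 to 0.82, leaves out 0; the intervals are not adjusted for the number of genes.

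Across the libraries the levels formed steps. Sox10 stood above Sox9 and Sox9 above Sox8 in all 4 libraries, with means over all libraries of 85.3, 51.7 and 40.9 FPKM. Sox8 and Sox4 (34.2 FPKM) overlapped in range, and Sox4 was above Sox8 in knockout replicate 2 alone. Sox2 and Sox17 followed at 7.74 and 7.43 FPKM with overlapping ranges. Sox2 was the higher in both knockout libraries and Sox17 in wild-type replicate 2. In wild-type replicate 3 they could not be ordered: Sox17 was at 7.28 FPKM and Sox2 at 7.22 FPKM, with a counting error of 6.00% for Sox2. Sox5 at 4.16 FPKM was above Sox21 (2.99 FPKM) and Sox11 (2.92 FPKM) in every library. Sox21 and Sox11 could not be ordered, and Sox6 was lowest at 1.95 FPKM.

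The other 9 SOX genes looked up gave 4 more that could be tested, and 0 of these passed (limma; 0 also at an unadjusted p under 0.05). Sox13, the third SoxD gene, was at 31.69 and 30.55 FPKM in the knockout and 36.35 and 31.52 FPKM in the wild type (log2 fold change -0.12 ± 0.09 SE, adjusted p = 0.486, limma), and its fold change was -0.02 when wild-type replicate 2 was left out and -0.22 when its partner was. Sox12, the third SoxC gene, was at 10.77 and 8.79 FPKM in the knockout and 9.26 and 8.31 FPKM in the wild type, and Sox7, a SoxF gene, at 1.99 and 2.71 FPKM in the knockout and 2.84 and 2.07 FPKM in the wild type. Groups overlapped for all 4, Sox18 included. Sox1, Sox3, Sox15 and Sox30 stayed at or under 0.26 FPKM in every library, and Sox14 had no value.

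Summed over the 18 SOX genes with a value, the family came to 308 and 282 FPKM in the knockout and 333 and 278 FPKM in the wild type. SoxE genes held 57.1% and 57.3% of that sum in the knockout and 61.0% and 61.5% in the wild type. SoxC genes held 18.1% and 17.1% in the knockout and 13.7% and 13.0% in the wild type. These shares did not overlap between the genotypes, but they add up to a whole, so a larger SoxC share lowers the others. The shares of the SoxB, SoxD and SoxF genes overlapped. Sox4 gave most of the SoxC sum, at 41.89 of 55.8 FPKM in knockout replicate 2 and 24.89 of 36.2 FPKM in wild-type replicate 3. The SoxC share thus largely repeats the difference in Sox4, which did not pass. An exact two-sided permutation test of 2 libraries against 2 cannot give a p below 0.333.

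In the list of Schwann cell genes known to lie downstream of SOX10, 13 of 13 tested members passed as lower and 0 as higher. Of all genes tested 2.04% passed as lower and 2.38% as higher. The median log2 fold change of the list was -2.19, against 0.06 over all genes tested. In bulk RNA fewer cells of a type and less RNA per cell cannot be told apart. Egr2, the transcription factor that SOX10 activates to start myelination, was at 1.86 and 2.38 FPKM in the knockout and 10.81 and 10.04 FPKM in the wild type (log2 fold change -1.88 ± 0.12 SE, adjusted p = 0.00562, limma). Both knockout libraries were below both wild-type libraries for Egr2, as for all 13 genes and for 17.1% of all genes tested. Cnp, which encodes an enzyme of myelin-forming glia, was at 29.43 and 33.26 FPKM in the knockout and 150.28 and 103.87 FPKM in the wild type, and Mag, the myelin-associated glycoprotein gene, at 2.9 and 3.93 FPKM in the knockout and 44.35 and 24.67 FPKM in the wild type. Erbb3, the neuregulin receptor gene of the whole Schwann cell lineage, had the smallest change of the list at -0.71 ± 0.11 SE (adjusted p = 0.0361, limma). Without knockout replicate 2 Cnp was at -1.88 and without knockout replicate 3 at -2.05. Leaving out either knockout library ended every call in the list, as it ended nearly all calls over all genes tested. Without a filter on low values 5 passed. The call of Erbb3 was lost without wild-type replicate 2 and that of S100b, a calcium-binding protein gene, without wild-type replicate 3.

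Set against Sox10 in the same library, Egr2 was at 0.0216 and 0.0317 of its FPKM in the knockout and 0.109 and 0.124 in the wild type. The ratio of Erbb3 to Sox10 was closer between the genotypes, at 0.105 and 0.110 in the knockout and 0.163 and 0.167 in the wild type. Oligodendrocytes, the other myelin-forming cells with Sox10, were near the floor: 5 of their markers summed to 0.200 and 0.310 FPKM in the knockout and 0.550 and 0.160 FPKM in the wild type, with Olig1 and Olig2 listed at 0 in both knockout libraries. Which cells gave the Sox10 transcript in either genotype was not measured.

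The melanocyte list went the other way. Of 7 tested members 5 passed as higher and 1 as lower, against 2.38% and 2.04% of all genes tested (limma). The median log2 fold change was 1.56. Dct, the melanin enzyme gene whose promoter is shown, was at 208.82 and 192.67 FPKM in the knockout and 37.83 and 34.64 FPKM in the wild type, and the tyrosinase gene Tyr at 11.22 and 11.95 FPKM in the knockout and 1.51 and 1.59 FPKM in the wild type. Dct was thus at 2.42 and 2.57 times Sox10 in the knockout and 0.383 and 0.427 of Sox10 in the wild type. Mlana, the gene of a melanosome protein, rose by 1.95 ± 0.13 SE and Ednrb, the endothelin receptor gene that melanocyte precursors need, by 0.88 ± 0.08 SE on the log2 scale (limma, adjusted p = 0.00599 and 0.0093). Kit, the receptor tyrosine kinase gene of the same cells, was the member that fell (-0.79 ± 0.13 SE, adjusted p = 0.0412). Mitf, the transcription factor that SOX10 switches on to specify melanocytes, was at 11.05 and 13.16 FPKM in the knockout and 10.55 and 10.91 FPKM in the wild type and did not pass (0.16 ± 0.11 SE, adjusted p = 0.431). Leaving out wild-type replicate 3 ended the call of Kit. Without either knockout library every call in the list was lost, as were nearly all calls over all genes tested.

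**Figure D3:**
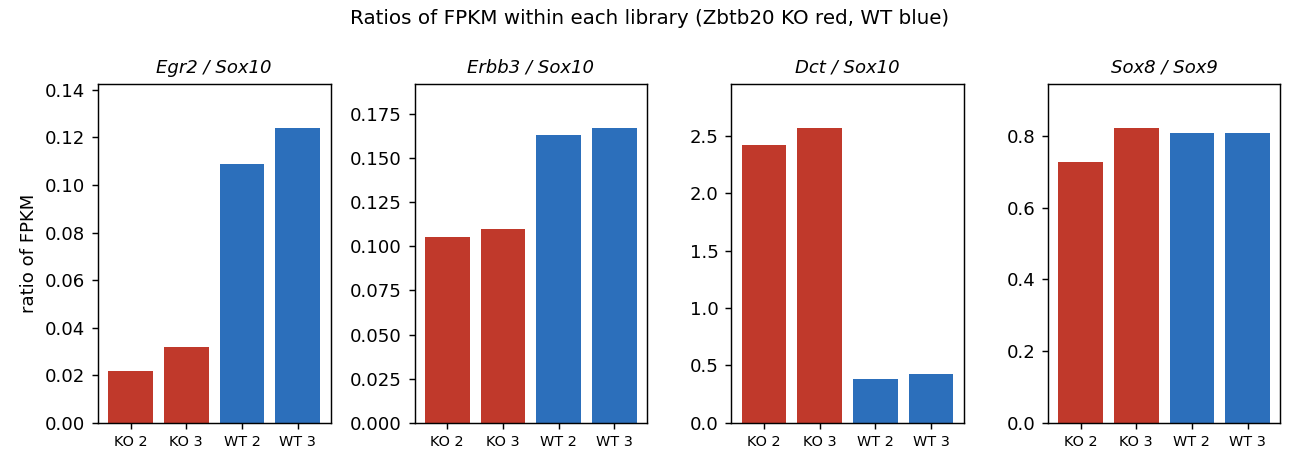
Ratios of FPKM within each library, for Egr2, Erbb3 and Dct over Sox10 and for Sox8 over Sox9, with knockout libraries in red on the left and wild-type libraries in blue on the right; each bar is 1 library. Egr2 over Sox10 is 0.0216 and 0.0317 in the knockout and 0.109 and 0.124 in the wild type, Erbb3 over Sox10 is lower in both knockout libraries, Dct over Sox10 is higher in both knockout libraries, and Sox8 over Sox9 lies between 0.728 and 0.822 throughout.

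In the list of chondrocyte genes that SOX9, SOX5 and SOX6 activate, 3 of 16 tested members passed as higher, 1 as lower and 12 did not pass. Over all genes tested 2.38% passed as higher and 2.04% as lower. The median of the list was -0.01. Col2a1, the main cartilage collagen gene and a direct SOX9 target, was at 6516 and 5944 FPKM in the knockout and 6160 and 6392 FPKM in the wild type, which was 125 and 125 times Sox9 in the knockout and 107 and 129 times in the wild type. The matrilin genes Matn1 and Matn4, of cartilage and other matrices, rose: Matn1 was at 14.15 and 12.31 FPKM in the knockout and 4.07 and 3.24 FPKM in the wild type (log2 fold change 1.61 ± 0.13 SE, adjusted p = 0.00779, limma), and Matn4 at 86.75 and 70.74 FPKM in the knockout and 37.24 and 24.99 FPKM in the wild type. Snorc, a cartilage proteoglycan gene, rose by 1.01 ± 0.15 SE. Acan, the aggrecan gene, fell to 9.67 and 10.15 FPKM in the knockout, against 19.79 and 23.22 FPKM in the wild type (-1.04 ± 0.10 SE, adjusted p = 0.0116). With either knockout library left out every call in the list was lost, as were nearly all calls over all genes tested. Without a filter on low values Matn4 and Snorc did not pass (adjusted p = 0.0863 and 0.0718, limma).

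In the list of otic sensory genes around SOX2, 2 of 14 tested members passed as higher, 1 as lower and 11 did not pass. The shares over all genes tested were 2.38% higher and 2.04% lower. The median of the list was -0.13. Isl1, a LIM homeobox gene of the prosensory region and of ganglion neurons, was at 20.91 and 21.28 FPKM in the knockout and 10.48 and 12.43 FPKM in the wild type (log2 fold change 0.83 ± 0.10 SE, adjusted p = 0.0189, limma). Hey2, a repressor gene downstream of Notch and FGF signals, was at 13.65 and 14.24 FPKM in the knockout and 6.15 and 7.95 FPKM in the wild type. Cdkn1b, the cell cycle inhibitor gene that keeps supporting cells from dividing, was the member that fell, at 43.68 and 39.25 FPKM in the knockout and 58.97 and 56.88 FPKM in the wild type (-0.47 ± 0.08 SE, adjusted p = 0.0429, limma). S100a1, a calcium-binding protein gene of supporting cells, was at 300.82 and 285.45 FPKM in the knockout and 458.03 and 381.41 FPKM in the wild type and did not pass (adjusted p = 0.0695), though it did without wild-type replicate 3 (adjusted p = 0.0365). Prox1, a homeobox gene of supporting cells, was at 0.53 and 0.63 FPKM in the knockout and 1.14 and 2.3 FPKM in the wild type. It did not pass (log2 fold change -0.75 ± 0.23 SE, adjusted p = 0.146, limma). The call of Cdkn1b was lost without each of the 4 libraries in turn, and those of Isl1 and Hey2 without either knockout library. Nearly all calls over all genes tested were lost without either knockout library too. Isl1 was at 0.84 without knockout replicate 2 and 0.82 without knockout replicate 3, and Hey2 at 0.93 and 0.87. Hair cell markers, which mark the neighbours of the SOX2 cells, were lower in both knockout libraries for 4 of 4 genes, against 17.1% of all genes tested. Of these markers 0 passed and 4 were at an unadjusted p under 0.05 (limma), against 22.0% of all genes tested. They summed to 21.8 and 18.8 FPKM in the knockout and 29.6 and 28.9 FPKM in the wild type. The part of hair cells in the values of this list was not tested.

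Immature neuron genes, set beside the SoxC factors, gave 1 called higher of 7 tested and 0 lower, with a median of 0.16. Of all genes tested 2.38% were called higher and 2.04% lower. Stmn1, a microtubule regulator gene of dividing and growing cells, was at 235.14 and 249.73 FPKM in the knockout and 166.51 and 146.15 FPKM in the wild type (log2 fold change 0.63 ± 0.09 SE, adjusted p = 0.0286, limma). Marcksl1, which encodes an actin-binding membrane protein, was at 189.95 and 152.17 FPKM in the knockout and 136.07 and 110.88 FPKM in the wild type and did not pass (adjusted p = 0.158). Tubb3, the neuronal tubulin gene that SOX4 and SOX11 bind, was at 9.19 and 17.65 FPKM in the knockout and 18.49 and 41.16 FPKM in the wild type, lower in replicate 2 of each genotype. Its log2 fold change of -1.06 did not pass (adjusted p = 0.243, limma). The fold change of Tubb3 became -1.61 when wild-type replicate 2 was left out, -0.50 when its partner was and -0.62 when knockout replicate 2 was. Tead2, a direct SoxC target, was at 32.8 and 31.16 FPKM in the knockout and 29.07 and 27.99 FPKM in the wild type (log2 fold change 0.16 ± 0.07 SE, adjusted p = 0.268). Stmn1 no longer passed without wild-type replicate 3 (log2 fold change 0.54), knockout replicate 2 (0.68) or knockout replicate 3 (0.59). Without either knockout library nearly all calls over all genes tested were lost too. Stmn2, a relative of Stmn1 in neurons, was at 19.27 and 23.79 FPKM in the knockout and 5.03 and 18.44 FPKM in the wild type. Its low value was that of wild-type replicate 2, and wild-type replicate 3 lay close to knockout replicate 2. Stmn2 did not pass (log2 fold change 1.05 ± 0.53 SE, adjusted p = 0.314, limma).

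Endothelial genes, set beside Sox17, gave 0 calls among 13 tested and a median of -0.07. At an unadjusted p under 0.05 there were 3 of the 13 (limma), against 22.0% of all genes tested. Cldn5, the tight junction gene of vessel walls, was at 49.24 and 50.39 FPKM in the knockout and 58.58 and 56.08 FPKM in the wild type. The VEGF receptor genes Kdr and Flt1 were at log2 fold changes of -0.12 ± 0.08 SE and -0.29 ± 0.11 SE (limma, adjusted p = 0.427 and 0.222). Vwf, the gene of a clotting protein stored in endothelium, was at 0.93 and 0.78 FPKM in the knockout and 2.42 and 1.51 FPKM in the wild type and did not pass (adjusted p = 0.122), though it did without wild-type replicate 3 (log2 fold change -0.88, adjusted p = 0.0454).

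**Figure D4:**
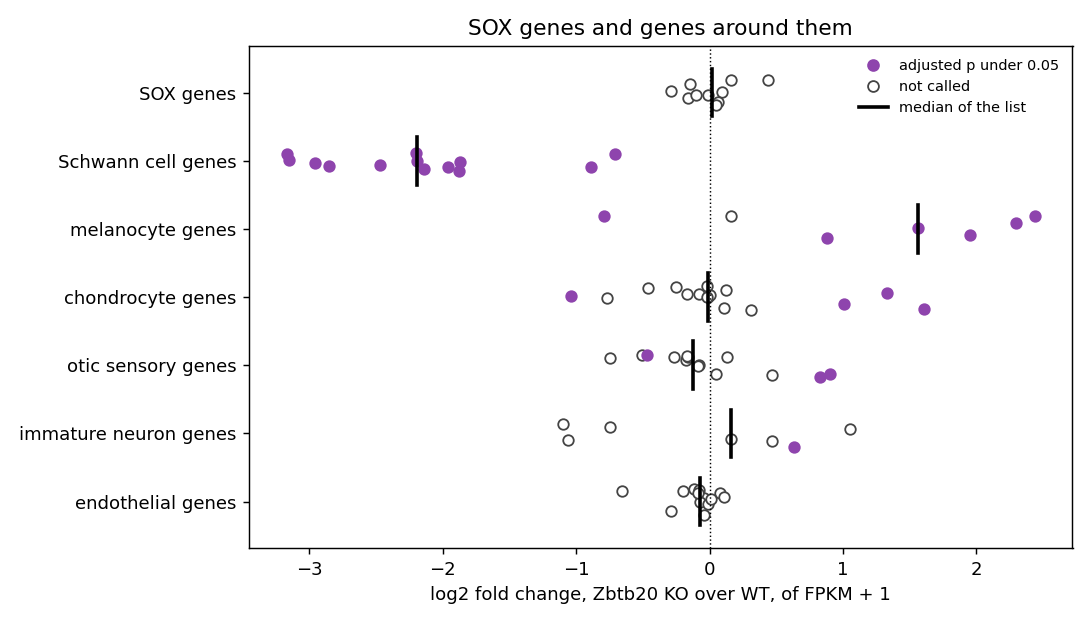
Log2 fold changes of FPKM + 1, knockout over wild type, of the tested members of each list, with filled points at an adjusted p under 0.05 and a bar at the list's median; vertical spread within a list has no meaning. The SOX genes lie between -0.29 and 0.44 with no filled point, the Schwann cell list has its median at -2.19 and the melanocyte list at 1.56.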

How the data were processed

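Each library has a table of its own, in which the authors give genes as FPKM, per the file headers. The submitters' processing notes name RSEM 1.2.12, Bowtie2 2.2.5, HISAT2 2.0.4 and the build mm10 but not what each was used for. Strand use and filters are not given in the sources used here. Of 20777 rows 17816 held a value; 4 repeated value columns were not used. Sums and estimated depth per library stand in the results. Intervals of fragments cover counting error only.

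The tables hold no counts, so limma 3.58.1 in R 4.3.3 was fitted to log2(FPKM + 1) on genotype, with a variance trend over intensity, for genes whose mean reached 0.5 FPKM in the libraries fitted. The Benjamini-Hochberg adjustment ran over all genes tested. The fit was tested on simulated data. Depth was sought that made low FPKM times transcript length whole, from genes with 1 transcript. A lone library, where its partner is left out, is taken to vary like the other group.

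All 10 SOX genes are described. Also named are Zbtb20, the tested other SOX genes, genes that share exon bases with a member and, from each list, the 4 tested genes of smallest p or fewer; a gene that this rule also picks is not reported here. Erbb3, S100b, Kit, Mitf, Col2a1, Prox1, Stmn2, Cdh5, the SOX genes under the filter and single cell markers were named after their values were seen. The members and lists were chosen with earlier results of these data known. Exon overlaps come from GENCODE vM21 and promoters from RefSeq (GRCm38.p6).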

Additional observations from a re-analysis of the deposited data

How the results depend on the processing

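None of the 10 SOX genes passed with a pseudocount of 0.1 FPKM, no filter, no intensity trend or median-of-ratios rescaling. With a filter at 2 FPKM, under which Sox6 (mean 1.95 FPKM) was not tested, none of the others passed. The count was 0 to 1 when each library was left out in turn, the 1 being Sox4 without wild-type replicate 2. The libraries share replicate numbers, and nothing in the labels says that a number marks a shared litter or day. Differences between replicates 2 and 3 had a correlation of 0.4 between the genotypes across 13966 genes. With the replicate block 1 SOX gene passed, Sox4 (adjusted p = 0.0139), 1362 genes were called higher and 991 lower against 333 and 285 without it. The block also gave 3 lower chondrocyte genes, 4 lower sensory genes, 2 higher and 3 lower neuron genes and 2 lower endothelial genes.

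Signs near 0 turned. After median-of-ratios rescaling, which lowers the median of all genes to 0.00, Sox5 and Sox21 were at 0.00, just below it, and Sox18 at -0.06. With each library left out, the log2 fold change ran from -0.09 to 0.26 for Sox2, from -0.02 to 0.13 for Sox5, from -0.21 to 0.00 for Sox9, from -0.10 to 0.08 for Sox11, from -0.14 to 0.24 for Sox21, from -0.21 to 0.12 for Sox7 and from -0.22 to 0.25 for Sox18. The cause was not tested.

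Without the filter on low values 159 genes were called higher and 107 lower. Then 5 Schwann cell genes were lower, 0 melanocyte genes lower, 1 chondrocyte gene higher, 0 sensory genes higher and 0 lower and 0 neuron genes higher, and Zbtb20 (-0.49) had an adjusted p of 0.0766. Without the trend 0 melanocyte and 0 sensory genes were lower. Leaving out each library gave 0 to 12 lower Schwann cell genes, 0 to 5 higher and 0 to 1 lower melanocyte genes, 0 to 3 higher and 0 to 1 lower chondrocyte genes, 0 to 2 higher and 0 to 1 lower sensory genes, 0 to 1 higher neuron genes and 0 to 1 lower endothelial genes. Over all genes it gave 1 to 272 higher and 0 to 345 lower, the lowest counts without knockout replicate 2 or 3, and Zbtb20 lay between -0.51 and -0.48.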

Other observations

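In 7 of the 10 SOX genes replicate 2 was higher than replicate 3 in both genotypes, as it was in 29% of the 13966 genes tested. The 3 exceptions were Sox5, lower in replicate 2 of both genotypes, Sox8, lower in knockout replicate 2, and Sox11, lower in wild-type replicate 2. Together the 10 genes reached 247 and 224 FPKM in the knockout libraries, replicate 2 first, against 265 and 222 FPKM in the wild-type libraries. The driver label changes with the same number, and driver and number cannot be told apart.

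Bone markers moved with the replicates in the other direction, at sums of 876 and 1212 FPKM in the knockout (replicate 2, then 3), against 1235 and 1609 FPKM in the wild type. Of 5 bone markers 1, Spp1, passed as higher in the knockout, though not without wild-type replicate 3, and 0 passed as lower (limma). Of all genes tested 2.38% passed as higher and 2.04% as lower. At an unadjusted p under 0.05 there were 4 of the 5 bone markers (limma), against 22.0% of all genes tested. Blood and marrow markers summed to 772 and 690 FPKM in the knockout and 1264 and 918 FPKM in the wild type. Of 8 tested 0 passed and 2 were at an unadjusted p under 0.05 (limma), against 22.0% of all genes tested. The part of these tissues in the SOX levels was not tested. Markers of strial marginal cells passed as higher in 3 of 3, against 2.38% of all genes tested (limma). They summed to 56.6 and 50.1 FPKM in the knockout and 22.9 and 20.7 FPKM in the wild type.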
